A study of Drosophila melanogaster with 8 samples.

Results

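Of the 15296 gene models measured in Drosophila melanogaster, 42 have symbols that mark them as proteasome subunits or close relatives of one: symbols starting with Prosalpha, Prosbeta, Pros and a number, Rpn and a number, or Rpt and a number. They fall into 27 genes of the proteasome found in all cells, 2 gene models of Prosalpha1, and 13 paralogs, which are additional copies of a subunit gene. Their level was followed by genotype and by stage. RNA came from whole females in 4 groups of 2 libraries each. A4 adults, aged 2 to 3 days, and A4 third-instar larvae were homozygous for In(2)A4, an inversion on chromosome 2. A12 adults of the same age and A12 third-instar larvae were of genotype A12/A12. The study is about position effect variegation (PEV), in which genes moved near heterochromatin by a rearrangement are silenced in some cells and not in others, and it set animals showing it against wild type. All animals were kept at 18 °C. A4/A4 larvae were recognised by the lack of fluorescence among the progeny of a stock balanced with CyO-GFP. The labels describe no such selection for A12 and give no age within the instar, so genotype, stock and progress through the instar cannot be told apart.

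The proteasome is the main protease of the cytoplasm and nucleus, and it degrades proteins tagged with chains of ubiquitin. Its barrel, the 20S core, has outer rings of alpha subunits that gate the entry and inner rings of beta subunits that hold the cutting sites. The 19S regulatory particle caps the barrel, with a base of ATPases (Rpt) that unfold the substrate and a lid of Rpn subunits that helps to remove ubiquitin. In flies, as in other animals, these subunits are made in every tissue, while several paralogs replace a subunit in the testis. The roles of single subunits given below are known mainly from yeast.

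The 27 genes comprised 6 of the alpha ring, 6 of the beta ring, 5 ATPases of the base, 3 other base subunits and 7 of the lid. Both gene models of Prosalpha1, which lie near each other on 2R (3714808 to 3716181 and 3717918 to 3719291), were listed at 0 in all 8 libraries, and no level is read from that. Further subunits carried symbols outside the selection and are described after the 27 genes. Several genes bear older names: Pros25 is Prosalpha2, Pros29 is Prosalpha3, Pros28.1 is Prosalpha4, Pros35 is Prosalpha6, Pros26 is Prosbeta6, Pros26.4 is Rpt2, Pros45 is Rpt6 and Pros54 is Rpn10. Levels are in FPKM, fragments scaled by the length of the gene model and by the mapped fragments of the library. Differences are on the log2(FPKM + 1) scale ± standard error, with limma p-values adjusted by Benjamini-Hochberg over all 9679 tested gene models. A gene was called when its adjusted p was below 0.05. Of the 42 models 28 passed the filter of a mean of 1 FPKM, the 27 genes and the paralog Rpt6R, which passed only through its level in A12 larvae.

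Library scale touches every result. No read counts were given, so depth is unknown, and small RNA genes held 63.12% to 81.57% of the FPKM of a library. The median of all tested genes differed by -0.43 between A4 and A12 larvae, by -0.05 between A4 and A12 adults, by 0.87 between A4 adults and A4 larvae and by 0.48 between A12 adults and A12 larvae. Results are therefore also given after median centring, in which every library is shifted to the same median. One library stood apart: A4 larvae replicate 2, labelled female like the rest, had 21 of 34 testis marker genes at 1 FPKM or more, against 3 to 5 in every other library. Its summed level of these markers was 206.0 FPKM, against 86.0 FPKM or less elsewhere, 5 of them were listed at 0 there, against 17 to 22 elsewhere, and the male RNA roX2 stood there at 34.9 FPKM. The counts of the 27 genes, and the larval counts of the lists that it moves, are given with and without it. Ovary and eggshell markers summed to 12500 FPKM or more in each adult library and to 52.8 FPKM or less in each larval one. The labels do not say whether the libraries of a group came from separate cultures, so p-values measure the spread between these libraries only. In RNA of whole animals, fewer cells of a type and less RNA per cell cannot be told apart.

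All 27 genes stood lower in A4 larvae than in A12 larvae, and in adults the genotypes did not differ by the test. The summed level of the 27 genes was 2742.3 and 3554.9 FPKM in A4 larvae, against 7828.1 and 6907.9 FPKM in A12 larvae. In adults the sum was 4820.9 and 3919.1 FPKM for A4 and 4844.6 and 4452.8 FPKM for A12. In FPKM the larval genotypes lay apart, both adult groups lay between them, and the adult genotypes overlapped. The place of the adults depended on the scale. After median centring the log2 ratio of the sums of A4 adults over A4 larvae was -0.49. As a share of the FPKM outside small RNA genes, the 27 genes made up 0.417% and 0.437% in A4 larvae, against 1.1% and 0.858% in A12 larvae. In adults the share was 0.652% and 0.653% for A4 and 0.65% and 0.585% for A12. A12 larvae were thus the highest group on both measures.

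**Figure D1:**
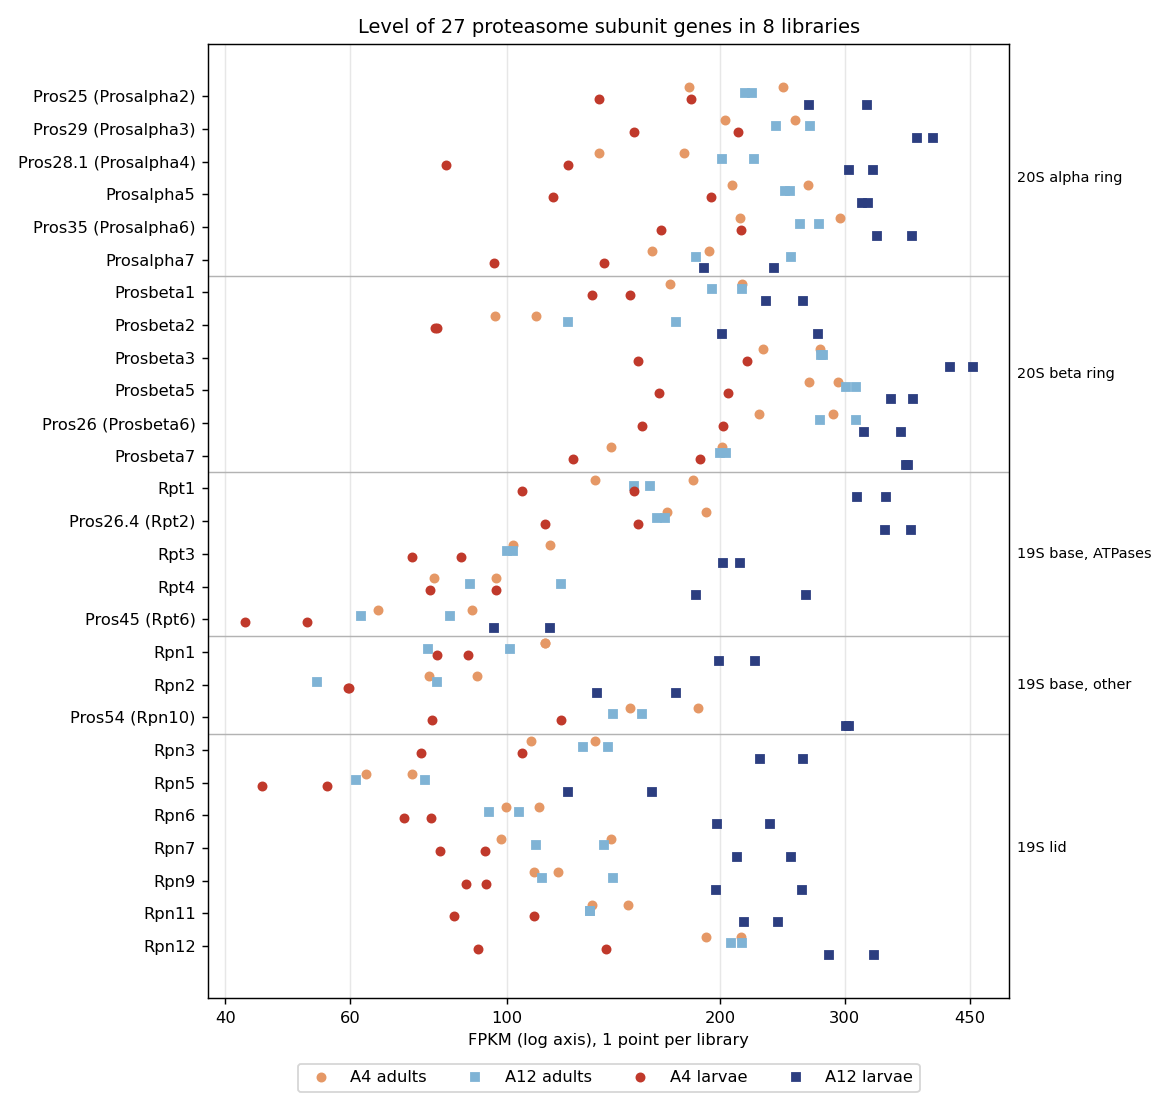
FPKM of each of the 27 subunit genes on a log axis, with 1 point per library, circles for A4 and squares for A12, grouped by place in the proteasome. For every gene both A4 larval libraries (dark red) lie left of both A12 larval libraries (dark blue), and the adult points lie mostly between them.

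Within a library the order of the genes was much the same. Prosbeta3, a structural beta subunit, had the highest mean over the 8 libraries, 289 FPKM, with ranks from 1 to 4 among the 27 genes. Prosbeta5 at 283 FPKM and Pros26 at 268 FPKM came next and changed places with it between libraries. The lowest were Rpn2 at 91.1 FPKM, Rpn5 at 82.0 FPKM and Pros45 at 75.7 FPKM, which held ranks 25 to 27 in every library. Of the 10 genes that ranked highest on average, 8 belonged to the core, the other two being Pros26.4 and Rpn12.

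In larvae all 27 genes fell in A4 and 0 rose, where 25.9% of all tested genes fell and 8.75% rose. Differences ran from -1.65 to -0.81 with a median of -1.32, and the A4 mean was a median of 0.395 times the A12 mean. For all 27 genes the A4 and A12 larval libraries did not overlap with A4 lower, a pattern that 56.5% of all tested genes showed. After median centring 18 of the 27 fell, against 10.1% of all genes, and the median difference was -0.86. Without A4 larvae replicate 2 the number was 26, the gene lost being Rpt4. Leaving out A4 larvae replicate 1 gave 18, leaving out A12 larvae replicate 1 gave 14, and larval libraries alone in the fit gave 14. Of the arms, 2L and 2R, which make up the inverted chromosome, had medians of -1.24 over 3 genes and -1.09 over 7 genes. The medians were -1.44 over 5 genes on 3L, -1.33 over 8 genes on 3R and -1.36 over 4 genes on the X.

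The alpha ring, which holds the gate of the core, fell in A4 larvae in 6 of 6 genes with a median of -0.99. Pros28.1 (X 16170305 to 16171620) stood at 81.9 and 122 FPKM in A4 larvae, against 329 and 304 FPKM in A12 larvae. Its difference of -1.65 ± 0.25 was the largest fall among the 27 genes (adjusted p = 0.0035). Pros29 (2R 16882405 to 16883623), whose product carries the central part of the gate, stood at 151 and 212 FPKM in A4 larvae, against 400 and 379 FPKM in A12 larvae (-1.12 ± 0.24, adjusted p = 0.0125). In both genes each A4 library was well below each A12 library. Prosalpha5 had 116 and 194 FPKM in A4 larvae, against 323 and 317 FPKM in A12 larvae (-1.09 ± 0.28, adjusted p = 0.0233). Pros35 had 165 and 214 FPKM in A4 larvae, against 373 and 333 FPKM in A12 larvae (-0.90 ± 0.24, adjusted p = 0.0274). Prosalpha7 (2R 5734141 to 5735341), the ring's lowest gene by mean level, had 95.7 and 137 FPKM in A4 larvae, against 238 and 190 FPKM in A12 larvae (-0.89 ± 0.27, adjusted p = 0.0406). Its call was lost without each library other than A4 larvae replicate 2 and both A12 adult libraries. After median centring Pros28.1 was the 1 alpha gene that still fell.

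The beta ring holds the catalytic subunits, and it fell in A4 larvae in 6 of 6 genes with a median of -1.12. Prosbeta1 (2R 11901309 to 11902285), which cuts after acidic residues, stood at 132 and 149 FPKM in A4 larvae, against 262 and 232 FPKM in A12 larvae. Its difference of -0.81 ± 0.21 was the smallest of the 27 genes (adjusted p = 0.0236). Prosbeta2 (3L 14993051 to 14994419), which cuts after basic residues, stood at 79.7 and 79.2 FPKM in A4 larvae, against 275 and 201 FPKM in A12 larvae. It was the lowest catalytic gene in every library other than A12 larvae replicate 1, and its difference was -1.55 ± 0.25 (adjusted p = 0.00407). Prosbeta5 (2R 6707469 to 6708685), which cuts after hydrophobic residues, stood at 164 and 205 FPKM in A4 larvae, against 374 and 349 FPKM in A12 larvae. Its difference was -0.97 ± 0.20 (adjusted p = 0.0113), and the genotypes were far apart in all 3 catalytic genes. Prosbeta3 (3R 4831035 to 4831948) had 153 and 218 FPKM in A4 larvae, against 455 and 423 FPKM in A12 larvae (-1.26 ± 0.23, adjusted p = 0.00768). Prosbeta7 had 124 and 187 FPKM in A4 larvae, against 368 and 366 FPKM in A12 larvae (-1.26 ± 0.27, adjusted p = 0.0128). After median centring 2 of the 6 beta genes fell, Prosbeta2 and Prosbeta3.

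The 5 ATPase genes of the base fell in A4 larvae, with a median of -1.37, and all 5 also fell after median centring. Pros26.4 (3R 19755595 to 19757156), an ATPase that helps to open the gate of the core, stood at 113 and 153 FPKM in A4 larvae, against 372 and 342 FPKM in A12 larvae. Its difference was -1.43 ± 0.21 (adjusted p = 0.00307). Rpt3 (X 11019221 to 11020840) stood at 73.4 and 86.1 FPKM in A4 larvae, against 213 and 202 FPKM in A12 larvae (-1.38 ± 0.18, adjusted p = 0.00185). Both genes separated the larval genotypes by more than the spread within either. Rpt1 had 105 and 151 FPKM in A4 larvae, against 343 and 312 FPKM in A12 larvae (-1.37 ± 0.25, adjusted p = 0.0075). Rpt4 had 96.6 and 77.9 FPKM in A4 larvae, against 264 and 185 FPKM in A12 larvae (-1.34 ± 0.26, adjusted p = 0.00946). Pros45 (X 21187087 to 21188690) had 42.6 and 52.2 FPKM in A4 larvae, against 115 and 95.9 FPKM in A12 larvae (-1.14 ± 0.24, adjusted p = 0.0133). Rpt1 shares all 1515 bases of its model with CG17985 and Pros45 shares 1463 with CG1801. Whether reads were counted by strand is not given in the sources used here, so the reads of these pairs may not be told apart.

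The 3 other base genes fell in A4 larvae with a median of -1.34, and all 3 fell after median centring. Rpn1 (3L 19908151 to 19911260), the scaffold on which shuttles with ubiquitinated proteins dock, stood at 79.7 and 88.1 FPKM in A4 larvae, against 224 and 199 FPKM in A12 larvae (-1.32 ± 0.20, adjusted p = 0.00332). Rpn2 (3R 24979246 to 24982977), the other large scaffold, stood at 59.6 and 59.9 FPKM in A4 larvae, against 173 and 134 FPKM in A12 larvae (-1.34 ± 0.24, adjusted p = 0.00708). Pros54 (3L 21530100 to 21531682), a receptor for ubiquitin chains, stood at 78.3 and 119 FPKM in A4 larvae, against 304 and 301 FPKM in A12 larvae (-1.64 ± 0.25, adjusted p = 0.00329). In none of the 3 did the larval genotypes overlap.

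The lid fell in A4 larvae in 7 of 7 genes with a median of -1.44, and in 7 of 7 after median centring. Rpn6 (2R 10637671 to 10640415), which clamps the lid to the core, stood at 78.2 and 71.6 FPKM in A4 larvae, against 235 and 198 FPKM in A12 larvae. Its difference of -1.51 ± 0.19 had the smallest adjusted p of the 27 genes (0.00138). Rpn11 (2L 5058404 to 5059790), the enzyme that takes ubiquitin off the substrate, stood at 84.1 and 109 FPKM in A4 larvae, against 241 and 216 FPKM in A12 larvae (-1.24 ± 0.20, adjusted p = 0.00452). Neither gene overlapped between the genotypes. Rpn5 (3R 1615215 to 1617291) had 45.0 and 55.7 FPKM in A4 larvae, against 160 and 122 FPKM in A12 larvae (-1.46 ± 0.23, adjusted p = 0.00382). Rpn3 had 75.7 and 105 FPKM in A4 larvae, against 262 and 228 FPKM in A12 larvae (-1.44 ± 0.23, adjusted p = 0.00403). Rpn12 (3L 16576128 to 16577122), the most abundant lid gene, had 91.0 and 138 FPKM in A4 larvae, against 330 and 285 FPKM in A12 larvae (-1.44 ± 0.24, adjusted p = 0.0052). The scaffold genes Rpn7 and Rpn9 differed by -1.40 and -1.32 and were called as well.

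The fall in A4 larvae was of unequal size in core and cap. The 12 genes of the 20S core had a median difference of -1.03 and the 15 genes of the 19S particle one of -1.38. The ratio of their summed levels, 20S over 19S, was 1.3 and 1.45 in A4 larvae, against 1.09 and 1.14 in A12 larvae. In adults it was 1.41 and 1.32 for A4 and 1.57 and 1.61 for A12. The ratio was higher in A4 than in A12 larvae and lower in A4 than in A12 adults, without overlap at either stage. The ratio of the median levels of core and cap was 1.67 and 2.05 in A4 larvae, against 1.37 and 1.57 in A12 larvae. In adults that ratio was 2.13 and 1.77 for A4 and 1.91 and 2.1 for A12, and the adult genotypes overlapped. With 2 libraries a group these ratios are given without a test.

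**Figure D2:**
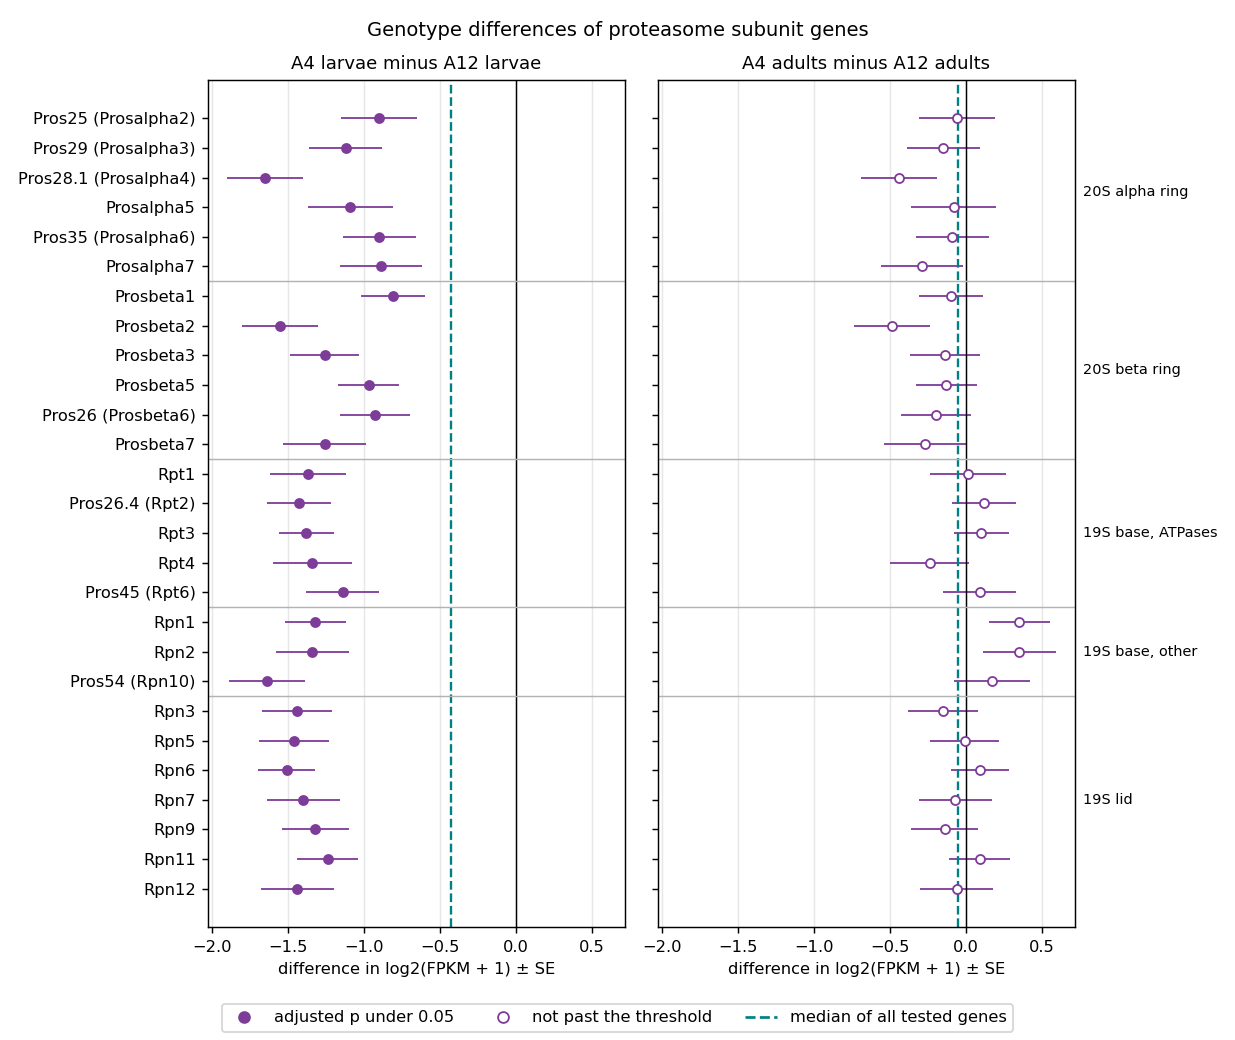
Genotype differences (A4 minus A12) in log2(FPKM + 1) ± standard error for the 27 genes in larvae (left) and adults (right), with filled points for adjusted p under 0.05 and a dashed line at the median of all tested genes. In larvae all 27 points are filled and lie below the median of all genes at -0.43, and in adults none is filled.

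In adults 0 of the 27 genes rose and 0 fell in A4 in limma, where 0.217% of all tested genes rose and 0.517% fell, and 0 of the 27 had an unadjusted p under 0.05. After median centring the counts were again 0 and 0, against 0.176% and 0.486% of all genes. Differences ran from -0.49 to 0.35 with a median of -0.08. Prosbeta2 had 110 and 96.1 FPKM in A4 adults, against 173 and 122 FPKM in A12 adults, the lowest difference of the 27 (-0.49 ± 0.25, adjusted p = 0.529). Rpn1 had 113 FPKM in both A4 adult libraries, against 101 and 77.3 FPKM in A12 adults (0.35 ± 0.20, adjusted p = 0.571). Rpn2 had 90.7 and 77.6 FPKM in A4 adults, against 79.6 and 53.9 FPKM in A12 adults (0.35 ± 0.24, adjusted p = 0.648), and these libraries overlapped. Adult libraries of the genotypes did not overlap in 7 genes, 3 higher in A4 and 4 lower, patterns that 16.1% and 26.2% of all tested genes showed. A p that misses the threshold does not show that the adult genotypes were alike.

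The larval genotype difference was set against the adult one in a test of the interaction. For 13 of the 27 genes the larval difference was the lower one, and for 0 it was the higher, where 10.9% of all tested genes had the first and 6.75% the second. In this fit all 13 belonged to the 19S particle: 3 ATPase genes (Pros26.4, Rpt1 and Rpt3), the 3 other base genes and the 7 lid genes. Of the 12 genes of the 20S core 0 passed, with differences of differences from -1.21 to -0.59, and all 12 were negative. The largest was that of Pros54, with 186 and 149 FPKM in A4 adults, 141 and 155 FPKM in A12 adults and the larval values above (-1.81 ± 0.35, adjusted p = 0.0154). For Rpn6 it was -1.60 ± 0.26 (adjusted p = 0.0089). After median centring 7 of the 13 passed, where 5.93% of all genes did in that direction, and 0 passed in the other, against 9.65%. Leaving out 1 adult library reduced the 13 to 2 (A4 adults replicate 1), 4 (A4 adults replicate 2), 6 (A12 adults replicate 1) and 3 (A12 adults replicate 2). Leaving out 1 larval library gave 5 (A4 larvae replicate 1), 3 (A12 larvae replicate 1) and 10 (A12 larvae replicate 2). Without A4 larvae replicate 2 it was again 13, of which 10 were among the first 13 and the other 3 were core genes (Pros28.1, Prosalpha5 and Prosbeta3). Quantile normalization and rescaling without small RNA genes each added 5 core genes. The absence of core genes thus depended on the fit, and core and cap were not tested against each other.

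The same 4 groups compared by stage gave opposite signs in the genotypes, but the sign in A4 depended on the scale. In A12, 16 of the 27 genes fell in adults relative to larvae and 0 rose, where 17.6% of all tested genes fell and 41.1% rose. The differences ran from -1.25 to 0.02 with a median of -0.79, and the adult mean was a median of 0.575 times the larval mean. After median centring 26 of the 27 fell, against 29.2% of all genes. In A4, 6 of the 27 genes rose in adults and 0 fell, where 55.8% of all tested genes rose and 13.9% fell, while after median centring 0 rose and 10 fell, against 23.5% and 30.0% of all genes. The A4 differences ran from 0.01 to 0.84, all below the median of all genes at 0.87. The stage comparisons share their larval and adult libraries with the genotype comparisons and add no independent evidence.

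In A12 the fall was uneven among the classes. It was called in 0 of 6 alpha genes, 3 of 6 beta genes, 4 of 5 ATPase genes, 3 of 3 other base genes and 6 of 7 lid genes. Rpn1 had 101 and 77.3 FPKM in A12 adults, against 224 and 199 FPKM in A12 larvae, and fell most (-1.25 ± 0.20, adjusted p = 0.00138). Rpn2 had 79.6 and 53.9 FPKM in A12 adults, against 173 and 134 FPKM in A12 larvae (-1.21 ± 0.24, adjusted p = 0.00414). Rpn6 had 104 and 94.4 FPKM in A12 adults, against 235 and 198 FPKM in A12 larvae (-1.11 ± 0.19, adjusted p = 0.00168). These 3 genes of the cap lay clearly lower in each adult library. Pros26.4 had 163 and 167 FPKM in A12 adults, against 372 and 342 FPKM in A12 larvae (-1.11 ± 0.21, adjusted p = 0.00327). Rpt3 had 100 and 102 FPKM in A12 adults, against 213 and 202 FPKM in A12 larvae (-1.03 ± 0.18, adjusted p = 0.00216). In the core, Prosbeta7 had 204 and 200 FPKM in A12 adults, against 368 and 366 FPKM in A12 larvae (-0.86 ± 0.27, adjusted p = 0.0275), a call lost without each of the 4 A12 libraries. Prosbeta2 and Prosbeta3 were called at -0.69 and -0.65, and each call was lost in 6 of the 8 fits that left out 1 library. Prosalpha7 had 252 and 185 FPKM in A12 adults, against 238 and 190 FPKM in A12 larvae (0.02 ± 0.27, adjusted p = 0.959, and -0.52 after median centring), the 1 gene whose stages overlapped. The other 26 lay lower in each A12 adult library and 0 lay higher, where 24.0% and 53.3% of all tested genes did. The count of 16 was 9 when A12 adults replicate 2 was left out, 10 when A12 larvae replicate 1 was, and 17 when A4 larvae replicate 2 was.

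In A4 the 6 genes called higher in adults were Prosbeta5, Pros45, Pros54, Rpn6, Rpn11 and Rpn12, and each turned negative after median centring, from -0.48 for Rpn6 to -0.12 for Rpn12. Rpn12 had 214 and 191 FPKM in A4 adults, against 91.0 and 138 FPKM in A4 larvae (0.84 ± 0.24, adjusted p = 0.0165, but -0.12 after median centring). Pros54 had 186 and 149 FPKM in A4 adults, against 78.3 and 119 FPKM in A4 larvae (0.78 ± 0.25, adjusted p = 0.0239, but -0.18 after median centring). Prosbeta5 had 293 and 267 FPKM in A4 adults, against 164 and 205 FPKM in A4 larvae (0.61 ± 0.20, adjusted p = 0.0287, but -0.36 after median centring). In FPKM the adult libraries of these genes lay above the larval ones. Of the 27 genes, 21 lay higher in each A4 adult library, where 67.4% of all tested genes did. Rpt4 had 96.4 and 78.9 FPKM in A4 adults, against 96.6 and 77.9 FPKM in A4 larvae (0.01 ± 0.26, adjusted p = 0.988, but -0.95 after median centring, adjusted p = 0.00799). The count of 6 was 0 without A4 larvae replicate 1 or A4 adults replicate 1, 3 without A4 adults replicate 2, and 12 without A4 larvae replicate 2.

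**Figure D3:**
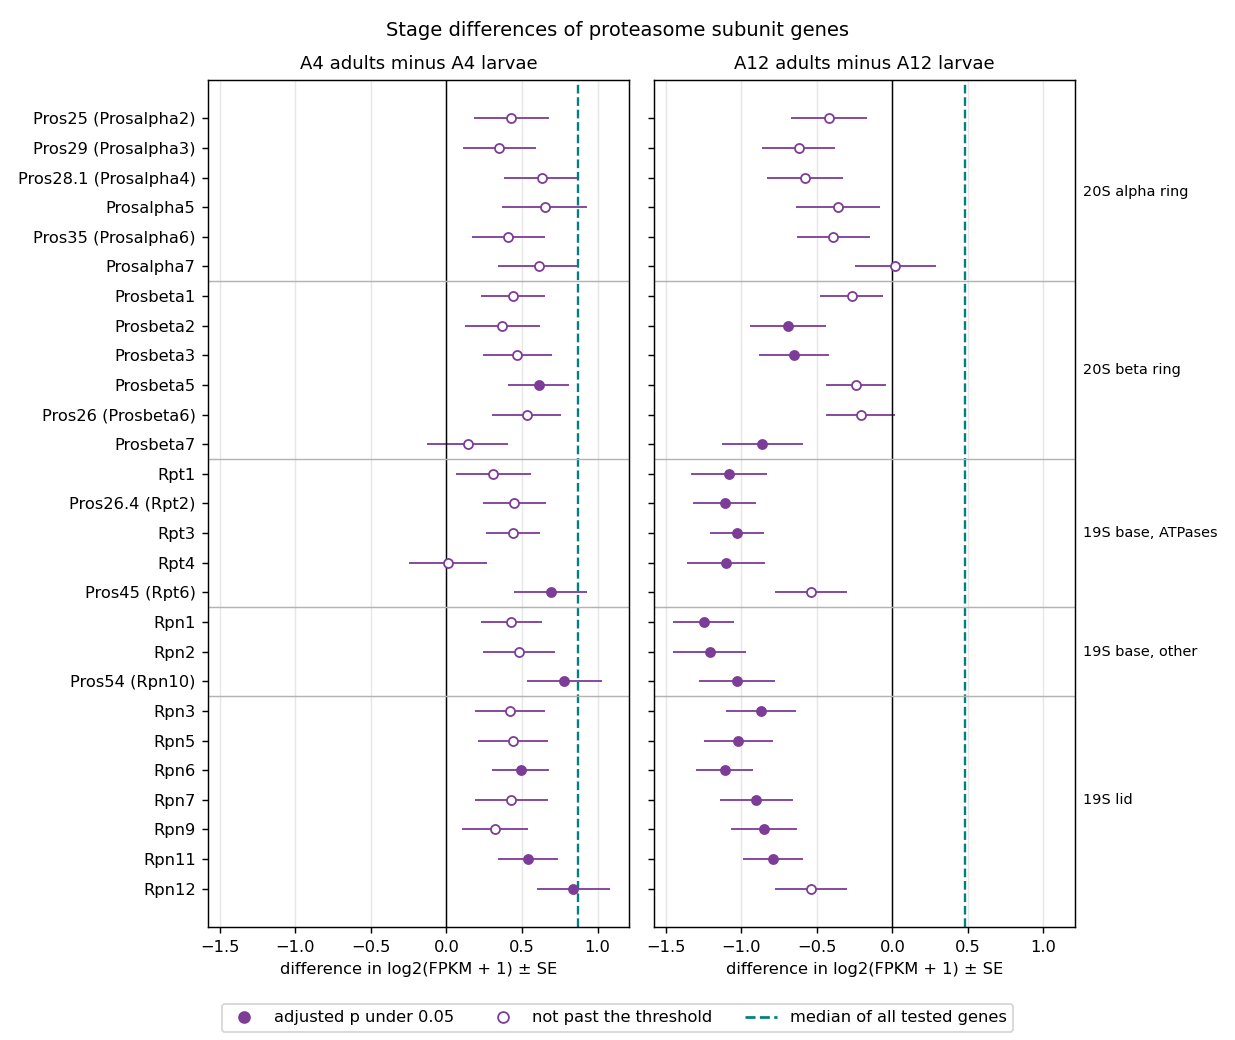
Stage differences (adults minus larvae) in log2(FPKM + 1) ± standard error for the 27 genes in A4 (left) and A12 (right), with filled points for adjusted p under 0.05 and a dashed line at the median of all tested genes. In A4 6 points are filled on the positive side but all 27 lie below the median of all genes at 0.87, so that after median centring their sign turns, and in A12 16 points are filled on the negative side.

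The 27 genes moved together over the 8 libraries. Pearson's r between a gene and the mean of the other 26, on log2 values, had a median of 0.95 over the 27 genes. It ran from 0.785 for Prosalpha7 to 0.994 for Rpn3, and after median centring its median was 0.973. The 8 libraries form only 4 groups and share the scale of each library, so r is given as a description without a p.

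A further 5 subunits, with symbols outside the selection, had levels like those of the 27 genes. They are the base ATPase Tbp-1 (Rpt5), the lid subunit Mov34 (Rpn8), the ubiquitin receptor CG13349 (Rpn13), the beta subunit CG17331 (Prosbeta4) and the small lid subunit CG13779 (Sem1). All 5 fell in A4 larvae with a median of -1.49, 4 of them after median centring, where 25.9% and 10.1% of all tested genes did. Tbp-1 (3R 19578598 to 19580345) stood at 58.5 and 71.2 FPKM in A4 larvae, against 226 and 186 FPKM in A12 larvae (-1.65 ± 0.22, adjusted p = 0.00192). Mov34 stood at 47.5 and 77.4 FPKM in A4 larvae, against 201 and 181 FPKM in A12 larvae (-1.64 ± 0.27, adjusted p = 0.00506). Neither gene overlapped between the larval genotypes, a pattern that 56.5% of all tested genes showed with A4 lower. In adults 0 of the 5 were called between the genotypes, where 0.217% of all tested genes rose in A4 and 0.517% fell.

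The alternative activator followed another course. REG (X 13106366 to 13108008), the fly PA28gamma, opens the 20S core without ATP in place of the 19S particle. It stood at 126 and 96.2 FPKM in A4 adults, 139 and 110 FPKM in A12 adults, 31.5 and 41.5 FPKM in A4 larvae, and 52.7 and 39.6 FPKM in A12 larvae. Both adult groups lay above all larval libraries, and the larval genotypes overlapped. REG rose with stage by 1.58 ± 0.25 in A4 (adjusted p = 0.00122) and by 1.42 ± 0.25 in A12 (adjusted p = 0.00238). Its larval genotype difference of -0.33 ± 0.25 was not called (adjusted p = 0.328), and its sign turned to 0.13 after median centring and to 0.01 after quantile normalization. REG is 1 of 9 tested genes of activators, inhibitors and assembly factors, of which 7 fell in A4 larvae and 1 did so after median centring, where 25.9% and 10.1% of all tested genes did. Without A4 larvae replicate 2 the number was 6. Among them Pomp, a chaperone of core assembly, had 28.0 and 24.7 FPKM in A4 larvae, against 78.3 and 56.2 FPKM in A12 larvae (-1.30 ± 0.32, adjusted p = 0.0217). PI31, which binds the core, had 27.7 and 36.4 FPKM in A4 larvae, against 57.9 and 44.1 FPKM in A12 larvae (-0.66 ± 0.23, adjusted p = 0.061).

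**Figure D4:**
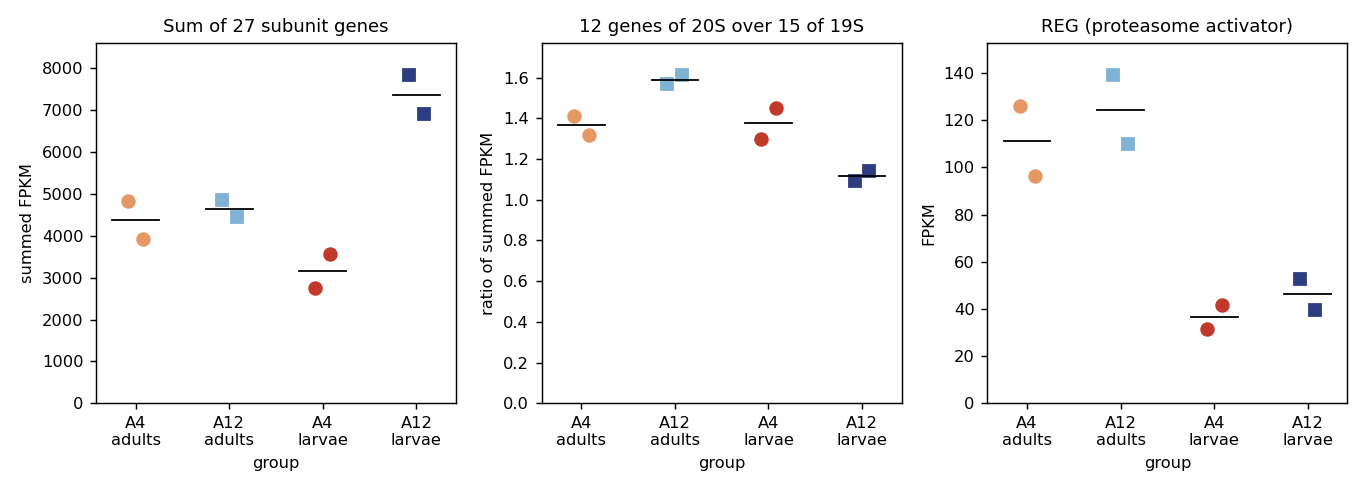
Summed FPKM of the 27 genes (left), the ratio of the summed FPKM of the 12 core genes to that of the 15 cap genes (middle) and FPKM of REG (right) in the 4 groups, with 1 point per library and a line at the mean of each group. A12 larvae have the highest sum and the lowest ratio, whereas REG is highest in both adult groups.

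Genes upstream of the proteasome fell in A4 larvae in part. Among shuttles and the segregase that extracts ubiquitinated proteins, 5 of 10 tested gene models fell, with a median of -0.87, where 25.9% of all tested genes fell. The models Npl4 and CG4673 overlap and stand for 1 gene. CG9934 (2L 13013276 to 13019434), which encodes Ube4B, an enzyme that lengthens ubiquitin chains, had 18.3 and 18.0 FPKM in A4 larvae, against 98.8 and 72.3 FPKM in A12 larvae. Its difference of -2.16 ± 0.20 exceeded that of each of the 27 genes (adjusted p = 0.000411). The segregase gene TER94 had 159 and 167 FPKM in A4 larvae, against 460 and 360 FPKM in A12 larvae (-1.31 ± 0.25, adjusted p = 0.0085). Neither of these genes overlapped between the larval genotypes, where 56.5% of all tested genes lay lower in A4 without overlap. The ubiquitin list held ubiquitin genes and E1 and E2 enzymes, which activate and pass on ubiquitin. It also held Nedd8, a relative of ubiquitin, and Uba2, Aos1 and lwr, enzymes of SUMO, another relative. Of the 21 tested genes of this list 10 fell, Uba2 among them, with a median of -0.79. The polyubiquitin gene Ubi-p5E (X 6171010 to 6173305) had 105 and 154 FPKM in A4 larvae, against 516 and 533 FPKM in A12 larvae (-2.04 ± 0.30, adjusted p = 0.00282). Its repeated ubiquitin units and its relatives in the genome make the share of reads behind it uncertain. Of 16 genes of cullin ligases 9 fell, with a median of -0.83, and of 8 genes of the COP9 signalosome, a relative of the lid, 2 fell, with a median of -0.66. The COP9 share was close to that of all tested genes. After median centring the numbers that fell in these 4 lists were 2, 4, 4 and 0, against 10.1% of all genes, and 1 ubiquitin gene rose. Without A4 larvae replicate 2 they were 6, 6, 6 and 2. In adults 0 genes of these lists were called between the genotypes, where 0.217% of all tested genes rose in A4 and 0.517% fell.

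By stage, most of these genes rose in A4 adults in FPKM, and fewer rose in A12 adults. In A4 adults relative to A4 larvae, 9 of 10 shuttle and segregase models and 13 of 21 genes of the ubiquitin list rose. So did 14 of 16 cullin ligase genes and 8 of 8 COP9 genes. In these lists 0 fell, where 55.8% of all tested genes rose and 13.9% fell. In A12 adults relative to A12 larvae, 3, 4, 9 and 1 rose and 3, 2, 0 and 0 fell, where 41.1% of all tested genes rose and 17.6% fell. After median centring, 1, 4, 9 and 0 rose in A4 and 1, 2, 2 and 0 fell, against 23.5% and 30.0% of all genes. In A12 the centred counts were 0, 3, 5 and 0 higher and 4, 6, 3 and 1 lower, against 27.1% and 29.2%. The direction of much of the stage difference thus depends on the scale. UbcD4, an E2 enzyme, had 56.8 and 42.9 FPKM in A4 adults, against 9.54 and 10.9 FPKM in A4 larvae (2.17 ± 0.23, adjusted p = 0.000212). In A12 it had 53.8 and 39.6 FPKM in adults, against 22.8 and 18.6 FPKM in larvae (1.13 ± 0.23, adjusted p = 0.00465). CSN5, the enzyme of the COP9 signalosome and a relative of Rpn11, had 64.3 and 52.3 FPKM in A4 adults, against 19.5 and 28.6 FPKM in A4 larvae (1.26 ± 0.22, adjusted p = 0.00192). In A12 it had 59.4 and 54.6 FPKM in adults, against 46.8 and 44.7 FPKM in larvae, and was not called (0.31 ± 0.22, adjusted p = 0.267, and -0.23 after median centring). The adult libraries of both genes lay above the larval ones in either genotype. The cullin ligase gene skpB, a relative of the adaptor Skp, had 6.69 and 7.72 FPKM in A4 adults and 6.33 and 12.5 FPKM in A12 adults and was listed at 0 in all larval libraries.

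Other large complexes gave the background. Of 85 cytoplasmic ribosomal protein genes 1 fell in A4 larvae, with a median of -0.39, where 25.9% of all tested genes fell and 8.75% rose. Of 22 genes of the vacuolar proton ATPase 2 rose and 1 fell, with a median of 0.05, and after median centring 6 rose and 0 fell, where 13.7% and 10.1% of all genes did. Of 8 genes of the chaperonin CCT, which folds actin and tubulin, 1 fell, with a median of -0.53, and by stage 8 of 8 rose in A4 adults and 7 of 8 in A12 adults, where 55.8% and 41.1% of all tested genes did. Without overlap, A4 larvae lay lower than A12 larvae in 63 ribosomal, 2 vacuolar ATPase and 8 CCT genes. They lay higher in 3, 6 and 0 genes. Of all tested genes 56.5% lay lower in this way and 16.1% higher. The sum of the 27 subunit genes over that of the ribosomal protein genes was 0.0218 and 0.0196 in A4 larvae, against 0.0394 and 0.0347 in A12 larvae. The genotypes did not overlap in this ratio, which does not depend on the scale of the library. In adults it was 0.0171 and 0.0194 for A4 and 0.0172 and 0.016 for A12, with overlap.

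Among known regulators, cnc, whose long form activates subunit genes in flies, had 46.3 and 34.3 FPKM in A4 larvae, against 59.1 and 48.0 FPKM in A12 larvae (-0.41 ± 0.27, adjusted p = 0.255), a difference that turned to 0.05 after median centring. Its partner maf-S had 19.2 and 30.3 FPKM in A4 larvae, against 51.0 and 46.2 FPKM in A12 larvae (-0.98 ± 0.28, adjusted p = 0.0323). Keap1, whose product holds cnc back, had 4.08 and 5.36 FPKM in A4 larvae, against 10.8 and 8.72 FPKM in A12 larvae (-0.91 ± 0.20, adjusted p = 0.0133). In each of the 3 the larval libraries of the genotypes did not overlap, a pattern that 56.5% of all tested genes showed with A4 lower. For cnc the nearest libraries were close, at 46.3 FPKM in A4 and 48.0 FPKM in A12. Of 5 regulators tested 3 fell in A4 larvae and 0 did so after median centring, where 25.9% and 10.1% of all tested genes did. Without A4 larvae replicate 2 the number was 2.

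Muscle and larval markers moved with larval genotype, while testis markers were high in 1 of the 2 A4 larval libraries. Of 19 tested muscle genes 9 rose in A4 larvae and 0 fell, where 8.75% of all tested genes rose and 25.9% fell, and 8 rose without A4 larvae replicate 2. The muscle markers had summed levels of 10800 and 8920 FPKM in A4 larvae, against 3070 and 4690 FPKM in A12 larvae. Of 16 tested glue and fat body markers of the larva 4 rose and 7 fell, with differences from -5.52 to 4.82. After median centring 4 rose and 3 fell, and without A4 larvae replicate 2 3 rose and 3 fell. Their sums, which overlapped, were 74400 and 67500 FPKM in A4 larvae, against 66100 and 100000 FPKM in A12 larvae. The part of these tissues in the larval difference of the subunit genes was not tested. Without the library with testis markers the larval count was 26 of 27.

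The 13 paralogs were near 0 in most libraries. In A4 larvae replicate 2, 9 of the 13 reached 0.5 FPKM and 4 reached 1 FPKM, and in each of the other libraries 0 or 1 reached 0.5 FPKM. Their summed level was 9.38 FPKM in A4 larvae replicate 2 and 0.575 FPKM in A4 larvae replicate 1. The paralogs Prosalpha6T at 1.2 FPKM, Pros28.1B (Prosalpha4T2) at 1.03 FPKM and Prosbeta4R2 at 1.21 FPKM stood out in that library, as did Rpn12R at 1.34 FPKM. In each other library these 4 genes stood at 0.236 FPKM or less. The 34 testis markers were high in the same library, as given above. Rpt3R was listed at 0 in all 8 libraries.

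Rpt6R (3R 26407920 to 26409419), a paralog of the ATPase Rpt6, had another pattern. It stood at 0.46 and 0.903 FPKM in A4 larvae, against 3.62 and 2.67 FPKM in A12 larvae. In adults it stood at 0.135 and 0.109 FPKM in A4 and 0.1 and 0.0825 FPKM in A12. It was highest in both A12 larval libraries. Of the 34 testis markers, 4 and 3 reached 1 FPKM there, against 21 in A4 larvae replicate 2. A link of Rpt6R to these markers was not tested. It fell in A4 relative to A12 larvae (-1.30 ± 0.26, adjusted p = 0.00939) and in A12 adults relative to A12 larvae (-1.92 ± 0.26, adjusted p = 0.000561). After median centring the larval difference was -0.85 and no longer called, and the interaction was not called either. Since Rpt6R passed the filter only through A12 larvae, some difference from that group had to follow, and these p-values support nothing. At such levels the log2(FPKM + 1) scale understates a change.

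**Figure D5:**
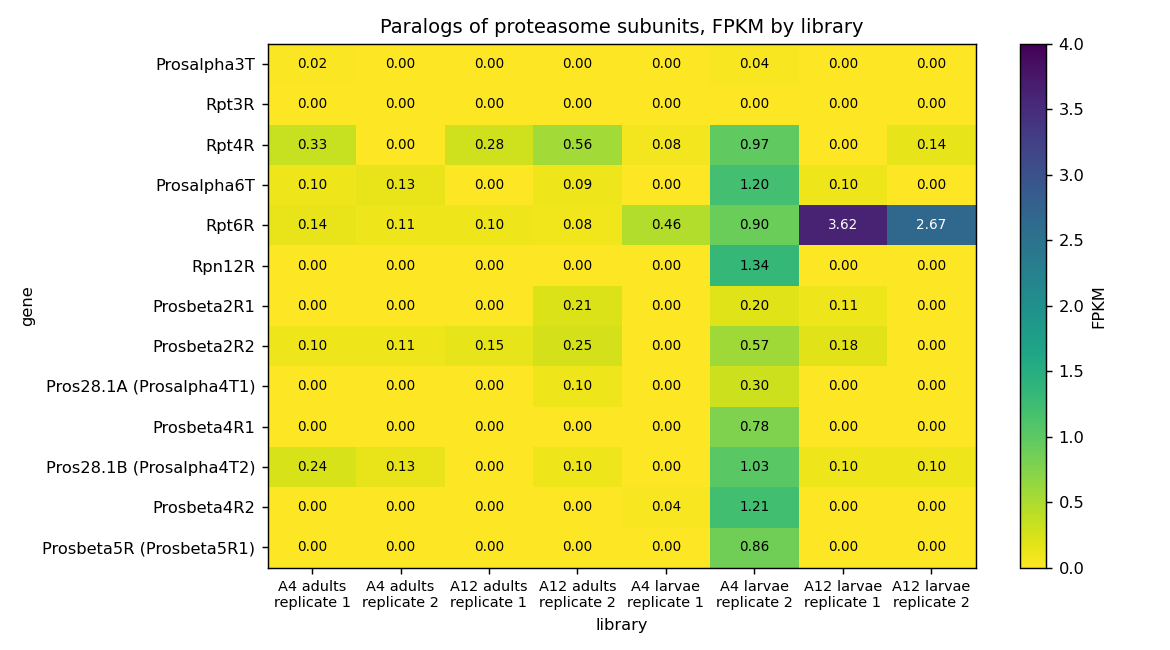
FPKM of the 13 paralogs (rows) in each of the 8 libraries (columns), with the value in each cell and darker colour for higher levels. A4 larvae replicate 2 has values in 12 of the 13 genes, and Rpt6R alone is high in A12 larvae, at 3.62 and 2.67 FPKM.

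In the authors' deposited table of log2 ratios of A4 to A12, which holds 9120 genes, the 27 genes had larval ratios from -1.64 to -0.81 with a median of -1.34, where the median of all genes in the table was -0.57. In the authors' deposited table the adult ratios ran from -0.52 to 0.34 with a median of -0.07, and 18 of the 27 were negative and 9 positive. The adult median of all genes in that table was also -0.07.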

How the data were processed

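FPKM values per gene model, with confidence bounds and a status, were deposited by the authors for 8 libraries of whole females. Bowtie, Bowtie2, TopHat, Cufflinks and the build dm3 are named in the submitters' processing notes, with order and options not given in the sources used here. The only version found there was 0.6, for TopHat. PolyA RNA was made into TruSeq libraries after Ribo-Zero depletion, per the labels' protocols. A further table of log2 ratios of A4 to A12 was deposited by the authors and is described without a test. Starts in the files count from 0 and were raised by 1, since 1710 models on 2L matched an annotation that way and 7 as written.

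Of 15296 models, 17 whose status was failed or high-data somewhere and those with a mean under 1 FPKM were left out, and 9679 were tested. The test was limma 3.58.1 in R 4.3.3 on log2(FPKM + 1), in 1 fit of the 4 groups with a trended eBayes prior and 7.23 total degrees of freedom, with Benjamini-Hochberg adjustment over all tested models at 0.05. The 5 contrasts were genotype in larvae, genotype in adults, stage in A4, stage in A12, and the interaction. The fit was checked on simulated data. Python 3.11.15 with pandas 2.3.3, matplotlib 3.10.9 and numpy 2.4.6 made tables and figures. Count methods could not be applied, because FPKM are not counts, and depth is unknown.

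The members, the gene lists and the alternatives were chosen with earlier results of these data known. Members picked for naming were the catalytic subunits and up to 4 members of each class with the smallest p in each comparison. The members of highest and lowest mean level of each class and paralogs that reach 1 FPKM were picked too. Their library values are given for some comparisons only, and Rpn9 is given by its differences alone. Of the other lists only some of the up to 3 genes with the smallest p are named. Among the regulators, Hsf and foxo met that rule and are not described. PI31, Pomp, TER94, cnc, maf-S and Keap1 were added for their role. Symbols were matched to current names by the synonyms in a RefSeq gene table. Ribosomal and vacuolar ATPase genes were taken by symbol. Replicate numbers did not pair libraries, as the correlations of same-numbered deviations between groups ran from -0.0617 to 0.0857. Alternatives were median centring, quantile normalization, pseudocounts of 0.1 or 5, a filter at 5 FPKM or none, rescaling without small RNA genes, eBayes without trend or robust, only the compared groups, a replicate block, each library left out, and an adjusted p under 0.01. A fit without small RNA genes was added after seeing the data.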

Additional observations from a re-analysis of the deposited data

Results flagged for a closer look

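Results were marked here because a test of the difference itself found that the genotype difference (A4 minus A12) in larvae was not the one in adults. For the base subunits the larval minus the adult difference was -1.55 for Pros26.4, -1.38 for Rpt1, -1.47 for Rpt3, -1.68 for Rpn1, -1.69 for Rpn2 and -1.81 for Pros54. For the lid subunits it was -1.29 for Rpn3, -1.45 for Rpn5, -1.60 for Rpn6, -1.33 for Rpn7, -1.17 for Rpn9, -1.33 for Rpn11 and -1.38 for Rpn12. For the paralog Rpt6R it was -1.34, but Rpt6R was tested only because of its level in A12 larvae, so this value supports nothing. In each of the 14 the larval difference was the lower one, and the adult difference of each was not called. Of these 14, Pros26.4, Pros54, Rpn1, Rpn2, Rpn5, Rpn6 and Rpt3 passed after median centring.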

How the results depend on the processing

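Counts here cover the 28 members that passed the filter, including Rpt6R, which passed only through A12 larvae. In A4 against A12 larvae 28 fell, and the number was 18 after median centring, 15 with only the compared groups in the fit, 18 at an adjusted p under 0.01, and 15 to 28 when single libraries were left out. In A4 adults against A4 larvae 6 rose and 0 fell. Where a count of 1 that fell is given for this comparison, the gene was Rpt6R and none of the 27. The number that rose was 0 after median centring, 0 at an adjusted p under 0.01, 17 after rescaling without small RNA genes, and 0 to 12 with single libraries left out. The number that fell was 11 after median centring and 1 with a pseudocount of 0.1, no filter, quantile normalization, eBayes without trend, robust eBayes or only the compared groups, and 0 to 1 with single libraries left out. In A12 adults against A12 larvae 17 fell, with 27 after median centring, 10 at an adjusted p under 0.01 and 10 to 18 with single libraries left out. For genotype by stage 14 passed, with 7 after median centring, 2 at an adjusted p under 0.01 and 2 to 14 with single libraries left out. In A4 against A12 adults the count was 0 under every alternative run. Replicate numbers mark no pairing here; with them as a block the counts were 28, 5, 16 and 14 in the same order. The log2 ratio of summed levels was -1.23 for A4 over A12 larvae (-0.77 after median centring) and -0.09 for A4 over A12 adults (0.08 as a share of FPKM outside small RNA genes). It was 0.47 for A4 adults over larvae (-0.49 after median centring) and -0.66 for A12 adults over larvae (-1.20 after median centring). Median centring turned the sign of REG (0.13) and cnc (0.05) in larvae, of Pros45 (-0.27), Pros54 (-0.18), Prosbeta5 (-0.36), Rpn11 (-0.42), Rpn12 (-0.12), Rpn6 (-0.48) and Rpt4 (-0.95) in A4 adults against larvae, and of CSN5 (-0.23) and Prosalpha7 (-0.52) in A12 adults against larvae. Quantile normalization turned REG in larvae (0.01), Rpt4 by stage in A4 (-0.23) and Prosalpha7 by stage in A12 (-0.12). With single libraries left out Rpt4 by stage in A4 ran from -0.15 to 0.16 and Prosalpha7 by stage in A12 from -0.20 to 0.24; a group left with 1 library is assumed to vary like the others. The cause was not tested. A 2-library group, an unknown depth and differences in the scale of larval libraries limit all counts.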

Other observations

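The genes outside the selection whose levels followed the 27 subunit genes most closely were read from Pearson's r with their mean over the 8 libraries, on median-centred log2 values of 5621 genes that averaged 10 FPKM or more. These genes were named after their values were seen. Snx6, a sorting nexin gene, came first with r of 0.9937, and the base ATPase Tbp-1 was second with 0.9925. Snx6 had 38.1 and 32.8 FPKM in A4 adults, 40.6 and 38.5 FPKM in A12 adults, 25.7 and 31.0 FPKM in A4 larvae, and 71.3 and 67.2 FPKM in A12 larvae. In FPKM Snx6 was highest in A12 larvae and lowest in A4 larvae, like the sum of the subunit genes. On the median-centred values behind r, all 27 subunit genes were lower in A4 adults than in A4 larvae. Those differences ran from -0.95 to -0.12. Of the 5 subunits with other symbols, 1 was among the nearest 30 genes, and CG13779 ranked 35. The other subunits ranked 117 (CG13349), 275 (Mov34) and 450 (CG17331) of 5621. Many genes that are not subunits thus followed the mean more closely than these did. REG had r of -0.80. The libraries form 4 groups and many genes share such a pattern, so r carries no p here.

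Of the 216 deposited FPKM values of the 27 genes, 92 lay outside the confidence bounds listed beside them, in 14 genes, by a ratio of at most 1.5 to the nearer bound. The bounds lay a median of 5.64% to either side of their centre. Among the 27 genes 11 shared bases with another gene model.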
